A study of Sus scrofa with 12 samples.

Results

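The circular RNAs described here are the abundant exonic circles of pig liver whose host genes give an intermediate number of circle types. A circle entered the set when the deposited circRNA table annotated it as made of exons, when its host gene had 2 to 14 such circles, when its reads summed to 120 or more over the 12 libraries, and when it lay off chromosomes X and Y. This left 470 circRNAs from 387 host genes, of 24177 circRNAs in the table. They held 184096 of 625980 back-splice reads, or 29.4%. The members were chosen by their measured read totals, so their abundance is given as a description. The rule did not use the group labels, but a circle high in 1 group can reach 120 reads through that group. CYP3A39 circle 4, for example, gave 92 of its 135 reads in cold Hezuo. The contrasts and the shares called among the members are therefore not independent of the choice.

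Liver was taken on day 15 from 4 groups of 3 pigs, with 1 library per pig in each group. Bama pigs, a miniature breed of subtropical southern China, were housed at 23 ± 2 °C, called room temperature, or at -15 ± 2 °C, called cold. Hezuo pigs, a small breed of the cold Gannan plateau, were kept at the same 2 temperatures. No gene was altered in any group. Replicates within a group are separate animals, since every label carries a pig number from 1 to 3. The labels repeat these numbers at both temperatures, so by themselves they do not show that the temperatures used different pigs.

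A circRNA is a closed RNA loop that the spliceosome makes when the end of a later exon is joined back to the start of an earlier exon. The loop has no free end and no poly(A) tail, so exonucleases that remove linear RNA do not attack it in the usual way, and circles are known to outlive the mRNAs of the same gene. Back-splicing competes with linear splicing of the same pre-mRNA, and pairing between repeats in the flanking introns is known to favour it. Only reads that cross the back-splice junction were counted for a circle, and a host count may also hold reads from the body of its circles. No sequence is shown, because the files used here hold none.

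Back-splice reads per library ranged from 39117 to 75616, and estimated gene counts from 20041285 to 30188037. The members' share of the back-splice reads lay between 28.2% and 32.3% in all 12 libraries. CPM here means counts per 1000000 of an effective library, which is the library size times its TMM normalization factor. That factor ran from 0.874 in Hezuo room temperature replicate 1 to 1.2 in Bama cold replicate 1. All 14 hepatocyte marker genes were detected. Their summed level was 143300 to 159200 CPM in room temperature Bama, 57190 to 125600 in cold Bama, 192400 to 210300 in room temperature Hezuo and 98600 to 178800 in cold Hezuo. The summed stellate cell markers were 2606 to 4725, 1106 to 1581, 2049 to 3102 and 1401 to 1923 CPM in the same order, and Kupffer cell and macrophage markers 1757 to 2665, 2672 to 4485, 1252 to 1858 and 1823 to 3315. The 8 T and NK cell markers summed to 87.5 to 232, 96.3 to 175, 49.4 to 74.2 and 58.6 to 76.7 CPM. Of the 8, 6 were called lower and 1 higher in Hezuo averaged over temperatures, where 12% of all genes were called. The 6 neutrophil and erythroid markers summed to 1403 to 5294, 250.3 to 3621, 4465 to 14820 and 2313 to 20970 CPM. Their median log2 change in Hezuo averaged over temperatures was 1.76, none was called with edgeR, and 5 had an unadjusted p below 0.05, as did 29.9% of all genes tested. Fewer cells of a type and less RNA per cell cannot be told apart in whole tissue, and the part of these shifts in the results was not tested. Y-linked RNA, summed over 3 genes, was at most 0.111 CPM in room temperature Bama, and Bama cold replicate 2 had 0. It was at least 71.6 CPM in every Hezuo library. The labels give no sex, and within Bama the difference in Y-linked RNA runs with temperature except for that 1 library.

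The circles were short relative to the stretch of gene they came from. Their spliced length had a median of 525 bases, with the middle of the distribution between 394 and 739 bases, while the genomic span from first to last exon had a median of 8636 bases. Of the 470, 65.1% were 300 to 700 bases long, against 52.2% of the 12921 exonic circles of intermediate hosts that fell below the read threshold. The corresponding share was 59.9% among 167 equally abundant circles of hosts with more circle types and 68.8% among 32 of hosts with a single type. The shortest member, at 70 bases, came from ULK2, a kinase that starts autophagy. The plus strand held 237 members.

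Most hosts gave 1 dominant circle. A single member came from 324 hosts, 2 from 50, 3 from 9, 4 from FDFT1 and NDFIP2, 5 from KANSL1L and 6 from CYP3A39. The top circle held a median of 71.96% of its host's exonic back-splice reads. It held over 50% in 329 hosts and over 90% in 77. PROX1, the homeobox factor that hepatocytes need, put 97.72% of its exonic back-splice reads into 1 circle (chr9:129557375-129572640, in the coordinates of the deposited table, whose genome build is not given in the sources used here). Among the 63 hosts with several members, 54 had members that shared a start or an end, so that 1 splice site was joined to alternative partners. Of the 114 pairs of members from 1 host, 39 shared the start, 38 the end, 10 overlapped without a shared site and 27 lay apart.

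Read totals ran from 120 to 7243 per circle with a median of 225.5. There were 33 circles with 1000 reads or more, while 251 lay between 120 and 239. The 12 most abundant held 17.6% of all member reads. Just inside the threshold, with 120 reads each, were circles of DISP1, SRBD1 and MATR3, and just outside it, with 119, were circles of ATP2A2, DBT and KTN1. All libraries held a read of 459 of the 470 members, and no library lacked more than 3 members.

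The most abundant member was circle 1 of NECTIN3, a cell adhesion protein of adherens junctions, at chr13:148517273-148534946. (Circles of 1 host are numbered by their reads.) It gave 805, 457 and 508 reads in room temperature Bama, 309, 618 and 1967 in cold Bama, 246, 390 and 359 in room temperature Hezuo and 597, 661 and 326 in cold Hezuo. Bama cold replicate 3 stood far above the other 11 libraries, and the groups overlapped. Circle 1 of HIBADH, an enzyme of valine breakdown, followed with 4001 reads in all. ZMYND11 circle 1, from a reader of methylated histone H3, had 3262, and PSD3 circle 1, from an exchange factor for the small GTPase ARF6, had 2890. RBM6, an RNA-binding splicing regulator, gave 2337 reads, ELF2 circle 1, from an ETS transcription factor, 2028, NDFIP2 circle 1, from an adaptor of NEDD4 ubiquitin ligases, 2023, and PTP4A1 circle 1, from a phosphatase of cell growth, 1950. AKR1D1 circle 1 had 1819 reads, PROX1 1804, XPO4, a nuclear transport receptor, 1526, and NECTIN3 circle 2 1477. Relative to gene counts scaled by the TMM factor, as for CPM, ZMYND11 circle 1 lay between 8.25 and 12.3 back-splice reads per 1000000. NECTIN3 circle 1 lay between 10.6 and 64.5 on that scale.

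**Figure D1:**
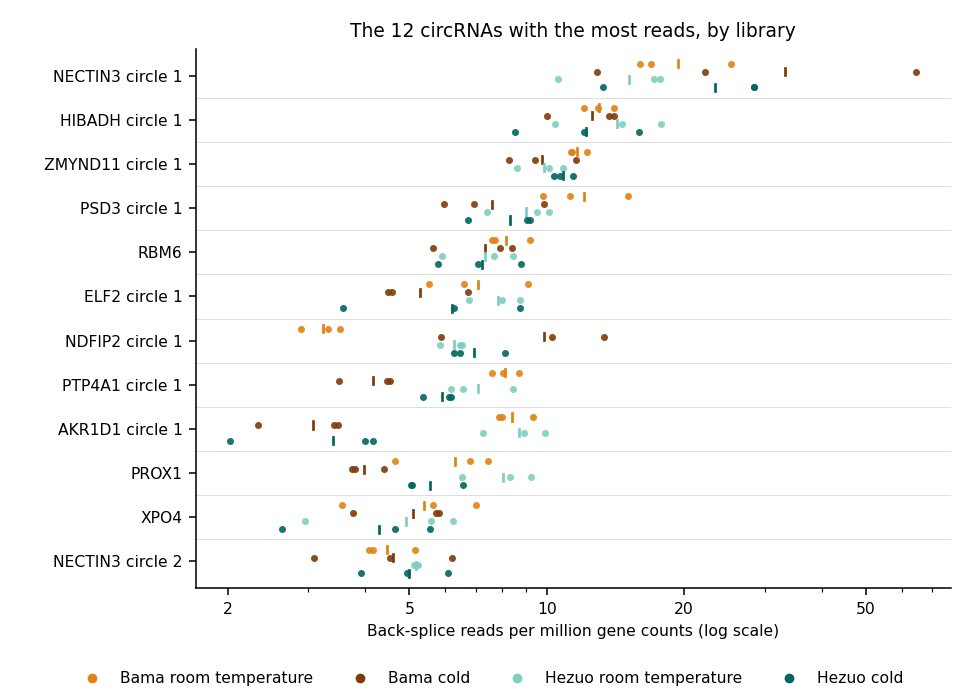
Back-splice reads per 1000000 gene counts scaled by the TMM factor (log scale) of the 12 circRNAs with the most reads, 1 point per library in 4 groups of 3, with the group mean as a vertical bar. NECTIN3 circle 1 reached 64.5 in 1 Bama library in the cold, and AKR1D1 circle 1 was lower in the 6 cold libraries than in the 6 room temperature libraries.

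Over all libraries, the median member gave 16.55 back-splice reads per 1000 counts of its host, with 1.73 at the 5th percentile and 94.54 at the 95th. These ratios compare a single junction with a whole gene, so they are not the share of transcripts that are circular. In 19 members the ratio exceeded 100 and in 12 it was under 1. MTERF3, a mitochondrial regulator of transcription and ribosome assembly, gave 427 back-splice reads per 1000 host counts with a host mean of only 74.75 counts per library. MADD, an exchange factor for Rab3 GTPases, gave 396.2, and CSPP1, a centrosome and cilium protein, 386.2. XPO4 gave 236.5 from a 333-base circle. An unnamed gene, ENSSSCG00000010850, gave 1824, but its host row averaged 9.917 counts per library.

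Levels were also scaled per length, as back-splice reads per 1000000 gene counts, here without the TMM factor, over the host's FPKM (fragments scaled to gene length and depth, as the authors deposited it). The 5 highest circles were those of MADD (2.574), MTERF3 (1.977), ENSSSCG00000010850 (1.79), CSPP1 (1.135) and DNM3 (0.712), a dynamin of membrane fission. The median of the members was 0.06806. The 5 lowest, from 0.0001628 to 0.0002807, were circles 2 to 6 of CYP3A39, a cytochrome P450 that oxidises drugs and steroids, whose host averaged 146600 counts per library. Circles that passed the read threshold came both from hosts with little linear RNA and from strongly expressed liver genes.

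**Figure D2:**
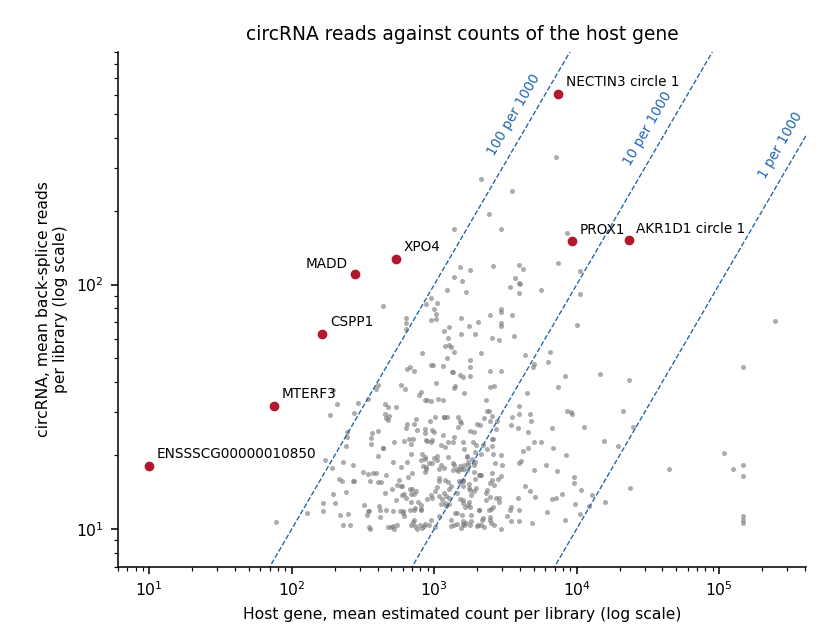
Mean back-splice reads per library of each member against the mean estimated count of its host gene (both log scales), for 468 members with a host row. Dashed lines mark 1, 10 and 100 back-splice reads per 1000 host counts, and the named points include MADD, CSPP1, MTERF3 and XPO4 above the upper line.

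Group differences were tested with edgeR's quasi-likelihood test and Benjamini-Hochberg adjustment over every circRNA or gene tested, and a difference is called here when the adjusted p was below 0.05. Log2 fold changes are given with their standard error. The level of a circle is relative to all back-splice reads of its library. The ratio of a circle to its host is the same test with the host count of the same library taken out. Against host counts, the median log2 change of all 7802 circles tested in cold Bama was -0.33, and it was -0.09 when circles and genes were each scaled within their own table. Changes in the ratio are therefore to be read relative to that shift.

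Averaged over the temperatures, the level of 29 of 470 members differed between Hezuo and Bama, 15 higher and 14 lower in Hezuo, where 1.28% of the 9032 circRNAs tested were called. The members carry more reads than most circRNAs by the rule that chose them. The share called was 6.17% among the members, 4.79% among 167 equally abundant circles of hosts with more circle types and 12.5% among 32 of hosts with a single type. The ratio to the host differed for 21 of 467 members, 11 higher and 10 lower, against 0.718% of 7802 tested. Both level and ratio were called for 17 members. The host gene itself was called for 6 of the 29, each in the direction of its circle, and 43 of 385 host genes were called in all, against 12% of 13532 genes. With back-splice reads scaled by gene counts the 29 became 27, 18 higher and 9 lower, and with both sides scaled within their own table the 21 became 25, 8 higher and 17 lower. Here and below, counts under other scalings, with a covariate or without a library stand without the share called over all features under that setting. A change in such a count or in its split by direction is therefore not a result about the members. Whether Y-linked RNA was detected differed within a group only in cold Bama. Its effect as a covariate was therefore estimated from Bama cold replicate 2 against replicates 1 and 3. A call lost or kept with this covariate rests on that 1 library and cannot decide what Y-linked RNA contributes. With Y-linked RNA as a covariate the 29 became 8, ATP11A circle 1, CCDC30, CYP3A39 circle 2, MIPOL1, NDFIP2 circle 2, PPP2R1B, SOX5 and WASF3. The 21 became 4, ATP11A circle 1, CYP3A39 circle 2, NDFIP2 circle 2 and PPP2R1B. The other calls averaged over temperatures were lost, among them those of AASS, CNTRL, HIBADH circle 2, KRIT1, TLCD4 and ULK2.

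The same contrast within the cold, where 2 of 3 Bama libraries hold Y-linked RNA, called 18 members for level, 9 higher and 9 lower in Hezuo, against 0.421% of circRNAs. It called 18 for the ratio, 9 higher and 9 lower, against 0.320%. Of the 385 host genes of members tested, 10 were called, 7 higher and 3 lower, against 2.76% of genes. Scaled by gene counts, 20 were called for level, 13 higher and 7 lower, given without the share over all circRNAs under that scaling. Without Bama cold replicate 2, the library with no Y-linked RNA, the counts were 16 and 14. At room temperature 9 members were called for level, 7 higher and 2 lower in Hezuo, against 0.454%, and 2 for the ratio, both lower, against 0.0641%, while 2 host genes were called, against 1.08%. That room temperature level count fell to between 3 and 5 without Bama room temperature replicate 2 or 3 or any of the 3 Hezuo room temperature libraries, and the ratio count moved between 0 (without Hezuo room temperature replicate 1) and 5 (without Bama cold replicate 3). With the Y-linked covariate 16 of the 18 level calls and 13 of the 18 ratio calls in the cold remained, and no call at room temperature did. At room temperature Y-linked RNA and breed ran together completely, so the loss of calls there decides nothing.

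WASF3, an actin-nucleating protein of the WAVE family, gave its circle (chr11:4338231-4345913) 7, 3 and 9 reads in room temperature Bama, 1, 5 and 2 in cold Bama, 11, 25 and 30 in room temperature Hezuo and 25, 28 and 11 in cold Hezuo. Every Hezuo library was above every Bama library. Averaged over temperatures its level was higher in Hezuo by 2.66 ± 0.42 (log2, adjusted p = 1.351e-07, edgeR) and its ratio to the host by 2.74 ± 0.42 (adjusted p = 1.284e-07), while the WASF3 gene changed by 0.01 ± 0.11. The level call, but not the ratio call, remained with Y-linked RNA as a covariate. At room temperature alone the level call of WASF3 was lost without any 1 of 5 libraries, Bama replicates 1 to 3 and Hezuo replicates 2 and 3 (adjusted p 0.0696 to 0.292).

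PPP2R1B, a scaffold subunit of protein phosphatase 2A, gave 6.78, 14.7 and 10.2 back-splice reads per 1000 host counts in room temperature Bama and 1.85, 5.07 and 2.37 in the cold. Hezuo pigs gave 21.1, 32.1 and 22.7 at room temperature and 16.5, 15.0 and 19.4 in the cold, with no overlap between the breeds. The ratio was higher in Hezuo by 1.85 ± 0.30 (adjusted p = 5.724e-07, edgeR), and it stayed called without any 1 library. The call was also kept with the Y-linked covariate, which rests on Bama cold replicate 2 and cannot decide what Y-linked RNA contributes. ULK2 gave its 70-base circle 15, 0 and 6 reads, 5, 9 and 2, 38, 26 and 7, and 33, 4 and 22 in the 4 groups in the same order. Its level was higher in Hezuo by 2.04 ± 0.39 (adjusted p = 6.279e-05) with libraries that overlap between the breeds, and the host changed by 0.07 ± 0.11. The averaged level and ratio calls of ULK2 were lost with the Y-linked covariate, and the ratio call also under DESeq2.

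CNTRL, a protein of the mother centriole, differed between the breeds in the cold without overlap. Its circle gave 37, 48 and 10 reads in room temperature Bama, 7, 5 and 3 in cold Bama, 41, 51 and 49 in room temperature Hezuo and 35, 43 and 12 in cold Hezuo. In the cold the ratio to the host was higher in Hezuo by 2.89 ± 0.47 (adjusted p = 3.961e-06, edgeR), and it remained called without any 1 library.

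TLCD4, a membrane protein with a TLC domain, had 2 members that share 1 back-splice site, and both were higher in Hezuo. Circle 2 (chr4:122253260-122285360, 484 bases) gave 35, 11 and 7 reads in room temperature Bama, 12, 6 and 12 in cold Bama, 48, 27 and 41 in room temperature Hezuo and 60, 32 and 41 in cold Hezuo. Per 1000 host counts it ranged from 2.62 to 11.5 in Bama and from 13.4 to 31.8 in Hezuo, without overlap. The ratio was higher in Hezuo by 2.01 ± 0.30 (adjusted p = 3.674e-08, edgeR) for circle 2 and by 0.79 ± 0.21 (adjusted p = 0.028) for circle 1, while the TLCD4 gene changed by 0.00 ± 0.18. Circle 2 took 33.3%, 14.5% and 12.1% of the TLCD4 exonic back-splice reads in room temperature Bama and 19.1%, 9.09% and 13% in the cold, against 37.2%, 31.4% and 25.3%, and 41.1%, 32.0% and 26.8%, in Hezuo. In that share 1 Bama library overlapped the Hezuo range. Averaged over temperatures the level and ratio calls of TLCD4 circle 2 were lost with the Y-linked covariate, while both of its calls in the cold remained. At room temperature alone the level call of circle 2 was lost without any 1 of 5 libraries, Bama replicates 2 and 3, Hezuo replicates 1 and 3 and Hezuo cold replicate 1 (adjusted p 0.0599 to 0.73).

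HIBADH also differed in its minor circle. Circle 2 (chr18:44996263-45015134) starts at the same site as the dominant circle 1 and gave 3, 7 and 5 reads in room temperature Bama, 7, 10 and 7 in cold Bama, 18, 20 and 38 in room temperature Hezuo and 19, 4 and 23 in cold Hezuo. Hezuo cold replicate 2 fell within the Bama range. The level was higher in Hezuo by 1.84 ± 0.39 (adjusted p = 6.499e-04, edgeR) and the ratio by 1.47 ± 0.40 (adjusted p = 0.0362), beside a host increase of 0.49 ± 0.13 (adjusted p = 0.0334). Its share of the HIBADH exonic back-splice reads was 0.756% to 2.82% in the 6 Bama libraries and 1.96% to 10.9% in the 6 Hezuo libraries. The averaged level call of HIBADH circle 2 was lost with the Y-linked covariate. Its room temperature level call, 2.68 ± 0.56, was lost without Hezuo room temperature replicate 3 (adjusted p = 0.108).

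ATP11A, a flippase that moves phospholipids to the inner leaflet of the plasma membrane, gave its circle 1 (chr11:78349882-78356609) 43, 56 and 45 reads in room temperature Bama and 49, 27 and 41 in the cold. Hezuo pigs gave 12, 14 and 12 at room temperature and 8, 4 and 10 in the cold, so all 6 were below all 6 Bama libraries. Its ratio was lower in Hezuo by a log2 change of -2.05 ± 0.32 (adjusted p = 1.284e-07, edgeR), and the ATP11A gene changed by 0.23 ± 0.15. The averaged call held without any 1 library. It was also kept with the Y-linked covariate, which rests on Bama cold replicate 2 and cannot decide what Y-linked RNA contributes. The room temperature level call of ATP11A circle 1 was lost without any 1 of 8 libraries, among them Bama room temperature replicate 2 (adjusted p = 0.501).

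SEC16B, which organises exit sites of the endoplasmic reticulum, changed in its ratio by -1.56 ± 0.32 in Hezuo (adjusted p = 7.145e-04, edgeR), with the level at -1.02 ± 0.31 (adjusted p = 0.0635). CCDC30 changed by -1.91 ± 0.35 in the ratio (adjusted p = 4.698e-05), with 86.3 to 252 back-splice reads per 1000 host counts in Bama and 28.6 to 66.3 in Hezuo. The ratio calls of SEC16B and CCDC30 averaged over temperatures were lost with Y-linked RNA as a covariate. In the cold alone, the ratio call of SEC16B was lost without any 1 of 7 libraries (adjusted p up to 0.429) and that of CCDC30 without Bama cold replicate 1 (0.0689) or Hezuo cold replicate 2 (0.073).

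SOX5, a transcription factor of the SOX family, gave its circle 51, 32 and 54 reads in room temperature Bama and 40, 80 and 149 in the cold, against 22, 10 and 22, and 31, 7 and 12, in Hezuo. In the cold its level in Hezuo was lower by a log2 change of -2.27 ± 0.36 (adjusted p = 5.623e-07, edgeR) and its ratio by -1.73 ± 0.37 (adjusted p = 0.00208). The host SOX5 gene changed by -0.35 ± 0.20 in that contrast.

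PECR, a peroxisomal reductase of fatty acid elongation, gave its circle (chr15:118320252-118327364) 37, 5 and 28 reads in room temperature Bama, 3, 4 and 1 in cold Bama, 36, 28 and 23 in room temperature Hezuo and 18, 13 and 24 in cold Hezuo. In the cold every Hezuo library was above every Bama library, and the ratio to the host was higher in Hezuo by 2.71 ± 0.60 (adjusted p = 0.00381, edgeR). That ratio call for PECR was lost without Bama cold replicate 3 (adjusted p = 0.212), while the level call held without any 1 library. KMO, the kynurenine hydroxylase of tryptophan breakdown, gave 5.57, 4.94 and 18.1 back-splice reads per 1000 host counts in room temperature Bama, 4.34, 4.82 and 4.47 in the cold, and 2.12, 1.22 and 3.32, and 0.929, 1.22 and 2.58, in Hezuo. Its ratio was lower in Hezuo without overlap, at -1.81 ± 0.31 (adjusted p = 8.111e-06), and that call was lost with the Y-linked covariate. The room temperature ratio of KMO, -2.08 ± 0.45, was called, and that was lost without Bama room temperature replicate 3 (adjusted p = 0.802) or Hezuo room temperature replicate 1 (0.102) or 2 (0.25). HSD17B13, a dehydrogenase of hepatocyte lipid droplets, changed in the cold by -2.35 ± 0.53 in the ratio (adjusted p = 0.0044), a call lost without Hezuo cold replicate 1 (adjusted p = 0.189). Averaged over temperatures the HSD17B13 ratio change was -1.42 ± 0.36, and that call was lost without any 1 of 7 libraries (adjusted p up to 0.172) and with the Y-linked covariate.

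The circles of KRIT1 and MIPOL1 were called lower in Hezuo together with their host genes. KRIT1, a scaffold of endothelial junctions, gave its circle 51, 38 and 38 reads in room temperature Bama and 53, 61 and 36 in the cold, against 7, 17 and 14, and 10, 10 and 14, in Hezuo. All Hezuo libraries were below all Bama libraries. The level changed by -1.70 ± 0.29 in Hezuo (adjusted p = 2.61e-06, edgeR) and the KRIT1 gene by -0.67 ± 0.09 (adjusted p = 0.00281). The ratio, -0.92 ± 0.30, was not called (adjusted p = 0.152), and the averaged level call of KRIT1 was lost with the Y-linked covariate (0.168), while its level call in the cold remained. AASS, which starts lysine breakdown, gave 30, 53 and 51 reads, 72, 89 and 101, 180, 96 and 124, and 144, 115 and 147 in the 4 groups in the same order. Its level was higher in Hezuo by 1.34 ± 0.19 (adjusted p = 2.377e-09), beside a host change of 0.89 ± 0.32 and a ratio change of 0.47 ± 0.20, neither called. MIPOL1 changed by -1.58 ± 0.44 in level with a host change of -0.91 ± 0.24 (adjusted p = 0.0338), but its level call was lost without any 1 of 6 libraries (adjusted p up to 0.583). SPIDR circle 3 changed by -1.74 ± 0.47 in level (adjusted p = 0.0222), beside a host change of -0.20 ± 0.13 that was not called. The SPIDR call was lost with the Y-linked covariate and without Bama room temperature replicate 1, Bama cold replicate 3, or replicate 3 of either Hezuo group (adjusted p 0.0845 to 0.165).

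The level of circles of C8A, CARF, DPYS, DISP1, TBC1D8 and TLCD4 circle 1 was also called higher in Hezuo averaged over temperatures. That of circles of RAB3IP, KCTD9, PPP2R5A and VPS50 was called lower. Of these, DISP1, TBC1D8 and VPS50 fall within the naming rule, and the others are named here only because they were called. LPGAT1, an acyltransferase, had a lower ratio in cold Hezuo beside similar circle reads. Its circle 1 gave 56, 81 and 79 reads in Bama and 59, 79 and 113 in Hezuo. The LPGAT1 host rose by 1.72 ± 0.40 in that contrast (adjusted p = 0.0477, edgeR), and the ratio of circle 1 changed by -1.13 ± 0.29 (adjusted p = 0.031). RMDN2, called for the ratio in the cold at 2.82 ± 0.68 (adjusted p = 0.012), gave 3, 2 and 3 reads in Bama and 13, 10 and 17 in Hezuo. That call was lost without Bama cold replicate 2 (adjusted p = 0.225) or 3 (0.1) or Hezuo cold replicate 3 (0.159).

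**Figure D3:**
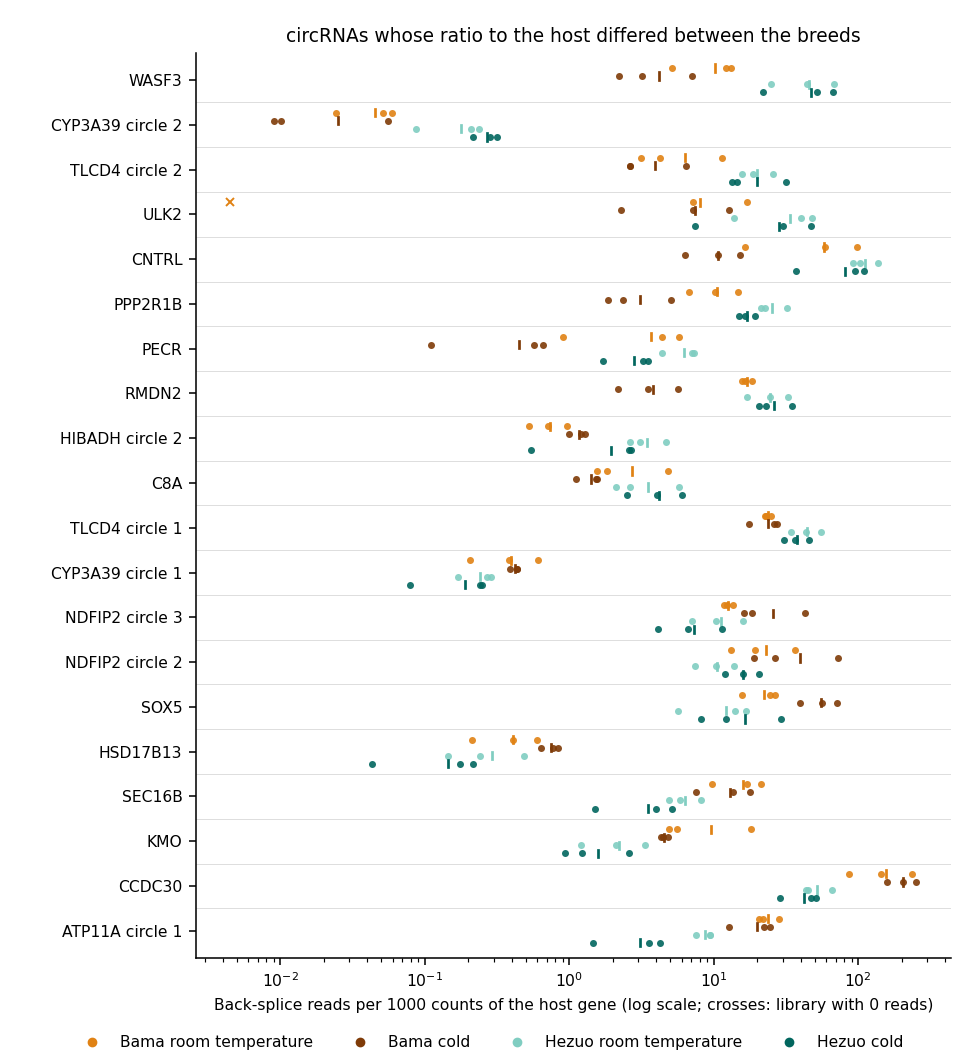
Back-splice reads per 1000 counts of the host gene (log scale) for 20 of the 21 members whose ratio differed between the breeds averaged over temperatures, 1 point per library, group means as vertical bars and a cross for the library with 0 reads. The 6 Hezuo and 6 Bama libraries do not overlap for WASF3 and ATP11A circle 1, for example, while those of ULK2, CNTRL and C8A overlap. The members were drawn because the breed test called them, so separation of the breeds follows in part from that choice.

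For cold against room temperature in Bama 9 members were called for level, 5 higher and 4 lower, against 0.155% of circRNAs tested, and 4 for the ratio, all lower, against 0.0641%. Of the host genes 1 was called in Bama, against 0.924% of genes, and 1 in Hezuo, against 0.281%. In Hezuo 4 were called for level, 2 higher and 2 lower, against 0.0886%, and 1 for the ratio, against 0.0128%. Averaged over the breeds the counts were 9 for level, 5 higher and 4 lower, against 0.199%, and 5 for the ratio, 1 higher and 4 lower, against 0.115%. With scaling by gene counts the averaged level calls were 3 higher and 8 lower and those in Bama 3 higher and 5 lower. With both sides scaled within their own table the averaged ratio calls were 4 higher and 2 lower. These counts, and those below without a library, are given without the share over all features under the same setting. Leaving out Bama cold replicate 3 lowered the Bama level count to 4, the Bama ratio count to 1 and the averaged ratio count to 2. The Bama ratio count was also 1 without Bama room temperature replicate 1 and 2 without Bama room temperature replicate 2 or Bama cold replicate 1. The Hezuo level count was 1 without Hezuo cold replicate 2 and 2 without Hezuo room temperature replicate 2 or 3, and the Hezuo ratio count ranged up to 4 (without Hezuo cold replicate 1). With the Y-linked covariate 1 Bama level call, NDFIP2 circle 1, and no Bama ratio call remained. The averaged level calls then were those of AKR1D1 circle 1, CYP3A39 circle 5, ITIH4 and NDFIP2 circles 1 and 2, and no averaged ratio call remained.

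The median change of the members in cold was small in level, -0.04 in Bama and -0.05 in Hezuo on the log2 scale, beside -0.07 and 0.00 over all circRNAs tested. Against the host the medians were -0.30 and -0.22, beside -0.33 and -0.18 over all exonic circles tested, so the members lay close to the background in both breeds.

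AKR1D1, the steroid beta-reductase of bile acid synthesis, had a circle that fell in both breeds. Circle 1 (chr18:11436848-11447863) gave 254, 212 and 296 reads in room temperature Bama and 82, 97 and 71 in the cold, and 207, 160 and 207 and then 84, 47 and 102 in Hezuo. The 6 cold libraries were all below the 6 at room temperature. The level fell by 1.21 ± 0.17 on the log2 scale averaged over the breeds (adjusted p = 1.677e-08, edgeR), with -1.19 ± 0.25 in Bama and -1.23 ± 0.25 in Hezuo. The AKR1D1 gene fell by 0.55 ± 0.14 (adjusted p = 0.0456), and the ratio by 0.83 ± 0.18 (adjusted p = 0.00604). The averaged level call held without any 1 library. The ratio call of AKR1D1 circle 1 was lost without Bama cold replicate 3 (adjusted p = 0.126) or Hezuo cold replicate 2 (0.0908), with both sides scaled within their own table and with the Y-linked covariate. Within Bama the level call was lost without Bama cold replicate 3 (0.0873) and with that covariate, and within Hezuo without replicate 3 at room temperature (0.0822) or replicate 2 in the cold (0.218).

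The circles of PECR and CNTRL fell in cold Bama while their host genes were not called. The PECR circle changed by -2.63 ± 0.58 in level (adjusted p = 0.0045, edgeR) and -3.11 ± 0.59 in the ratio (adjusted p = 0.00114), beside a host change of 0.27 ± 0.17. The CNTRL circle changed by -2.30 ± 0.46 in level (adjusted p = 6.881e-04) and -2.39 ± 0.47 in the ratio (adjusted p = 0.00152), beside -0.14 ± 0.16 for the host. In Bama, the PECR calls failed without Bama room temperature replicate 1 (adjusted p 0.389 and 0.127) or Bama cold replicate 3 (0.24 and 0.123). The CNTRL calls failed without Bama room temperature replicate 2 (0.36 and 0.489) or Bama cold replicate 3 (0.0691 and 0.112). All 4 calls were also lost with the Y-linked covariate. Averaged over the breeds, the ratio fell by 2.13 ± 0.38 for PECR (adjusted p = 1.52e-04), a call held without any 1 library and lost with the Y-linked covariate.

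PTP4A1 circle 1 and MTERF3 were called only for the ratio among the Bama cold contrasts. PTP4A1 gave 24.5, 29.6 and 30.3 back-splice reads per 1000 host counts in room temperature Bama and 13.6, 13.2 and 12.5 in the cold, a change of -1.11 ± 0.25 (adjusted p = 0.0186, edgeR). MTERF3 gave 949, 558 and 610 and then 196, 202 and 210, a change of -1.78 ± 0.39 (adjusted p = 0.015), with the host at 0.84 ± 0.24 (adjusted p = 0.129). Neither PTP4A1 nor MTERF3 overlapped between the temperatures in Bama. Both calls were lost with both sides scaled within their own table, that of PTP4A1 without any 1 of the 6 Bama libraries (adjusted p 0.0676 to 0.148), and that of MTERF3 without Bama room temperature replicate 1 (0.317) or any Bama cold library (0.112 to 0.127).

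Among circles that rose in the cold, ITIH4, an inter-alpha-trypsin inhibitor heavy chain of the acute phase response, gave 10, 17 and 4 reads in room temperature Bama and 33, 37 and 30 in the cold. Hezuo pigs gave 8, 5 and 1 at room temperature and 7, 45 and 14 in the cold. The ITIH4 level rose by 2.19 ± 0.35 averaged over the breeds (adjusted p = 9.553e-07, edgeR). Its host varied widely, from 3234 ± 2887 to 8482 ± 5664 CPM in Bama (SD, n = 3), and changed by 1.77 ± 0.67, not called, and the ratio by 0.52 ± 0.38. The level calls within a breed were lost without Bama room temperature replicates 1 or 3 or Bama cold replicates 1 or 2 (adjusted p 0.0501 to 0.693), and without Hezuo room temperature replicates 2 or 3 or Hezuo cold replicate 2 (0.0601 to 0.885). ARIH1, a ubiquitin ligase of the RBR family, gave a 174-base circle with 45, 24 and 31 reads and then 37, 65 and 83 in Bama, and 41, 25 and 36 and then 60, 61 and 44 in Hezuo. It rose by 1.03 ± 0.23 in level (adjusted p = 0.0074) with its host at 0.04 ± 0.08, and the ARIH1 call was lost without any 1 of 5 libraries, Bama room temperature replicates 2 and 3, Bama cold replicate 3, Hezuo room temperature replicate 2 and Hezuo cold replicate 2 (adjusted p 0.0517 to 0.0806). The AASS circle rose in cold Bama by 1.33 ± 0.27 (adjusted p = 0.00118), a call lost without Bama room temperature replicate 1 (0.247).

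NECTIN3 circle 1 was the 1 member called higher in the ratio for cold averaged over the breeds, by 0.64 ± 0.13 (adjusted p = 0.00445, edgeR). Its values per 1000 host counts were 84.0, 61.6 and 52.6 in room temperature Bama, 73.0, 88.4 and 150 in the cold, and 37.7, 71.0 and 53.4 and then 88.1, 107 and 55.3 in Hezuo, so the temperatures overlapped in both breeds. The NECTIN3 call was lost without Bama cold replicate 3 (adjusted p = 0.317), replicate 1 of room temperature Hezuo (0.0821) or replicate 2 of cold Hezuo (0.0709), and its level, at 0.90 ± 0.43, was not called (adjusted p = 0.692).

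**Figure D4:**
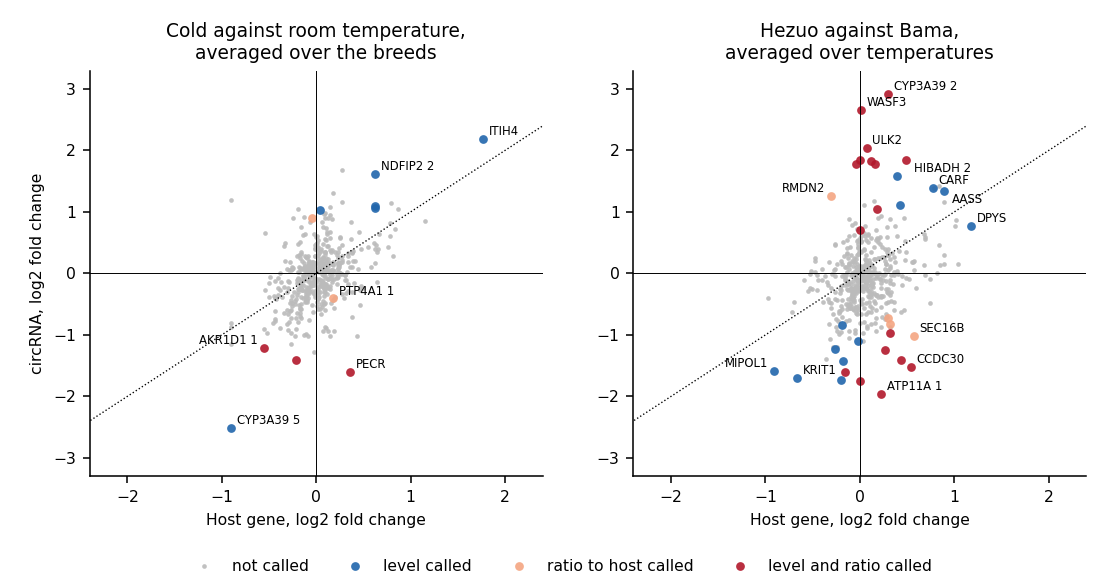
Log2 fold change of each member's level against that of its host gene, for cold against room temperature (left) and Hezuo against Bama (right), coloured by what was called, with a dotted line where both change equally. Some called breed differences, such as WASF3 and ULK2, lie near a host change of 0. In others, such as CCDC30 and SEC16B, the host changed in the other direction, while AASS, CARF, DPYS, KRIT1 and MIPOL1 lie toward the line.

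Circle and host changes were loosely related over the 468 members with a host row. Across members, which share libraries and hosts, Pearson's r of the 2 log2 fold changes was 0.37 for cold averaged over the breeds and 0.29 for breed averaged over temperatures. The sign was the same for 295 and 268 members in these 2 averaged contrasts. Within a breed, r for cold was 0.48 in Bama and 0.13 in Hezuo. The fold changes of circles spread more than those of hosts, with SDs of 0.53 against 0.28 for cold and 0.59 against 0.28 for breed. Circles carry far fewer reads than their hosts, at a median of 16.55 back-splice reads per 1000 host counts. The part of counting error in the wider spread and in r was not tested, so neither value shows that circles respond more than their hosts. For cold, 12 of 385 host genes were called averaged over the breeds, against 3.89% of genes, among them HSDL2 at 0.78 ± 0.15 and GNL3 at 0.76 ± 0.13, whose circles were not called.

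Circles of 1 host did not always move together. Of the 114 pairs from 1 host, 74 had the same sign in the averaged cold contrast and 72 in the averaged breed contrast. KANSL1L, a paralogue of a histone acetyltransferase subunit, had 5 members at 1448, 1224, 1104, 383 and 353 reads that combined few start and end sites, and none of them was called in any contrast. The 4 members of FDFT1, squalene synthase, had 457, 185, 162 and 131 reads, and none was called either.

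NDFIP2 circles 1, 2 and 3 share their start and rose in cold Bama by 1.84 ± 0.24, 2.15 ± 0.30 and 2.24 ± 0.34 in level (adjusted p 1.414e-10, 5.145e-09 and 1.687e-07, edgeR), with the host at 0.95 ± 0.27 (adjusted p = 0.131) and no ratio called in that contrast. Circle 1 gave 92, 95 and 105 reads in room temperature Bama, 141, 286 and 408 in the cold, and 150, 144 and 122 and then 136, 145 and 199 in Hezuo. Circle 4 of NDFIP2 ends earlier and gave 22, 7 and 18, 17, 22 and 7, 19, 29 and 17, and 21, 19 and 42 reads, and it was not called in level in any contrast. The Bama cold call of circle 2 was lost without Bama cold replicate 3 (adjusted p = 0.0691), in which 302 of its 834 reads lay. With the Y-linked covariate the Bama cold calls of circles 2 and 3 were lost and that of circle 1 remained.

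Between the breeds, circles 2 and 3 of NDFIP2 were lower in cold Hezuo than in cold Bama. Circle 2 gave 61, 112 and 302 reads in cold Bama and 56, 47 and 46 in cold Hezuo, and circle 3 gave 59, 68 and 179 and then 31, 26 and 12. Bama cold replicate 3 was the highest library for both, and relative to gene counts circle 3 was higher in every cold Bama library than in any cold Hezuo library, while circle 2 overlapped. The ratio changed by -1.30 ± 0.31 for circle 2 (adjusted p = 0.00935, edgeR) and by -1.82 ± 0.35 for circle 3 (adjusted p = 2.253e-04), with the host at -0.01 ± 0.27. Averaged over temperatures the ratio changes were -1.21 ± 0.22 for circle 2 (adjusted p = 4.698e-05) and -1.01 ± 0.25 for circle 3 (adjusted p = 0.0172), and the level of circle 2 changed by -0.96 ± 0.21 (adjusted p = 0.00138). Without Bama cold replicate 3 each of these calls was lost (adjusted p 0.795 and 0.379 in the cold, 0.112 and 0.365 for the averaged ratios and 0.382 for the averaged level). NDFIP2 circle 1 was higher in Hezuo at room temperature by 0.90 ± 0.24 in level (adjusted p = 0.038), a call lost without any 1 of the 6 room temperature libraries (0.0548 to 0.271) and with the Y-linked covariate.

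CYP3A39 gave circles that varied widely between animals. Its 14 exonic circles spanned 139.1 kb (chr3:6630995-6770048), and pairs of nearly the same spliced length, such as circles 2 and 3 at 2485 and 2482 bases and circles 4 and 6 at 452 bases each, lay at different positions. CYP3A genes form a cluster of near-identical copies, so the assignment of these reads to 1 gene or position is uncertain. Circle 2 gave 9, 13 and 5 reads in room temperature Bama, 1, 5 and 1 in cold Bama, 45, 15 and 41 in room temperature Hezuo and 37, 15 and 32 in cold Hezuo, and its level was higher in Hezuo by 2.93 ± 0.37 (adjusted p = 6.916e-12, edgeR). Circle 1 of CYP3A39 went the other way in the ratio, at -0.94 ± 0.25 (adjusted p = 0.0303). Circle 3 appeared in some animals only, with 0, 7 and 13, 9, 12 and 0, 1, 0 and 0, and 0, 108 and 48 reads, and was not called.

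Circle 4 of CYP3A39 gave 5, 28 and 7 reads in room temperature Bama, 1, 1 and 0 in cold Bama, 0, 1 and 0 in room temperature Hezuo and 1, 41 and 50 in cold Hezuo. Per back-splice read, the Hezuo cold total of 92 was 98.0 times the Hezuo room temperature total of 1, with a 95% exact counting interval of 17.2 to 3912, and it rests on 2 of 3 libraries. The Bama room temperature total of 40 was 15.0 times (3.9 to 128) the Bama cold total of 2. These intervals cover counting error only. The Bama call of circle 4 was lost without Bama room temperature replicate 2 (adjusted p = 0.847, edgeR) or Bama cold replicate 2 (0.0696) or 3 (0.233), and its breed call at room temperature without Bama room temperature replicate 2 (0.419). CYP3A39 circle 5 gave 54 of its 130 reads in Hezuo room temperature replicate 2, and its fall in the cold, -2.51 ± 0.49 averaged over the breeds, was lost without that library (adjusted p = 0.72).

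**Figure D5:**
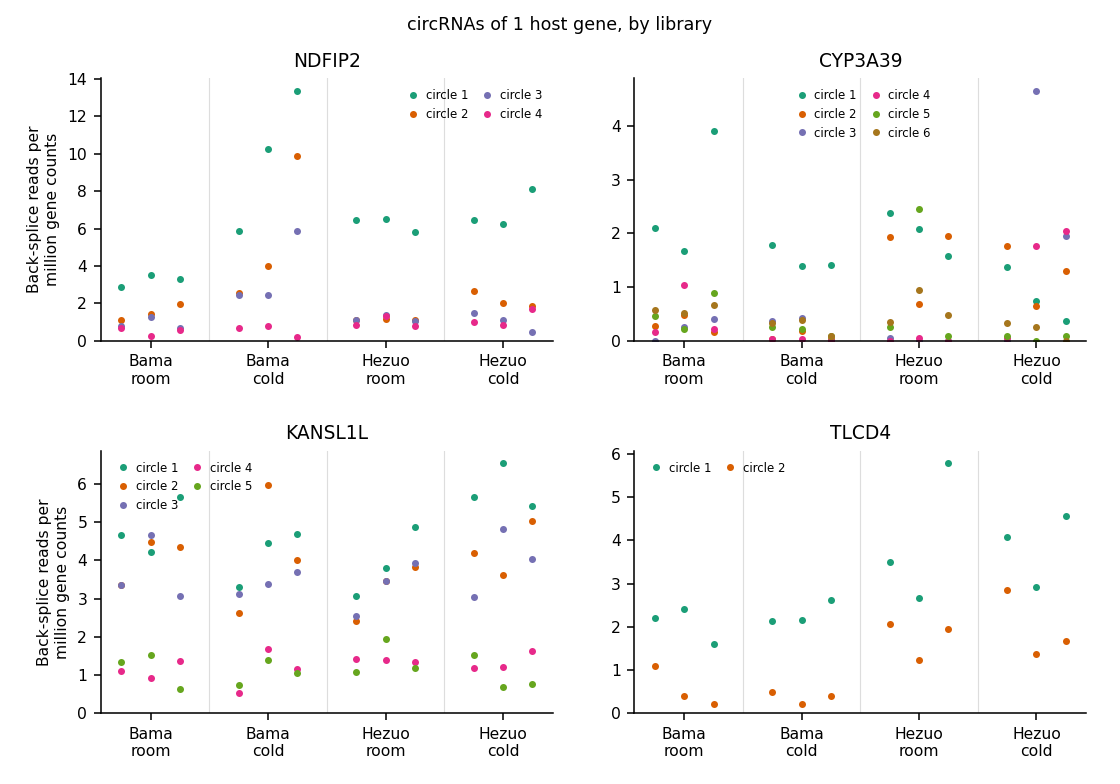
Back-splice reads per 1000000 gene counts scaled by the TMM factor for the members of NDFIP2, CYP3A39, KANSL1L and TLCD4 in each of 12 libraries, ordered by group, each colour 1 circle of that host. TLCD4 circle 2 was higher in the Hezuo libraries, and CYP3A39 circles 3 and 4 were highest in Hezuo cold replicates 2 and 3.

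Members were also counted by functional lists of host genes, beside 0.199% of all circRNAs called in level for cold averaged over the breeds and 1.28% for breed averaged over temperatures. The lists are small, so that 1 call lies above either share. Of 14 members from 8 hosts widely known to give circRNAs in mammals, such as ELF2, STAU2, RERE and SLC30A7, the 3 called for cold averaged over the breeds were all circles of NDFIP2. None of 16 members from chromatin and transcription hosts (ARID1A, CREBBP, NCOR1 and others) was called for level in the averaged cold or breed contrasts by edgeR, where 1 and 0 had an unadjusted p below 0.05, with medians of -0.14 and -0.07. Of 15 members from kinase and phosphatase hosts, 1 was higher in Hezuo averaged over temperatures, PPP2R1B. Of 18 from membrane traffic and cytoskeleton hosts, 1 was higher, TBC1D8, and 2 were lower, among them VPS50 circle 1. Of 11 from hepatocyte metabolism and secretion hosts, AASS was higher and KMO lower, with a median of -0.02, while 23 of the 81 genes on that list were higher and 1 lower in Hezuo at the gene level, where 12% of all genes were called. The medians over all circRNAs tested were -0.06 for cold and -0.07 for breed.

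Genes for proteins known to form, export or clear circRNAs were read beside the 3.89% of all genes called for averaged cold and the 12% called for averaged breed. Of 22 biogenesis factors none was called for cold averaged over the breeds in edgeR's test, where 1 had an unadjusted p below 0.05. For breed 1 was called, ADAR, the double-strand RNA editing enzyme known to oppose back-splicing, which was lower in Hezuo by a log2 change of -0.60 ± 0.12 (adjusted p = 0.0117). Of 13 export and decay factors 2 were lower in Hezuo, among them DDX39B, an RNA export helicase, at -0.26 ± 0.07 (adjusted p = 0.0408). Whether these genes bear on the circles was not tested.

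The cold response itself differed between the breeds for 3 members in level, 1 with a larger and 2 with a smaller response in Hezuo, against 0.0886% of circRNAs tested, and for 1 in the ratio, against 0.0128%. These were circles 1 and 3 of NDFIP2 and circle 4 of CYP3A39. The CYP3A39 circle passed the read threshold only through cold Hezuo, so its calls are not independent of the choice of members. The level count was 1 without Bama room temperature replicate 1 or 3 or Bama cold replicate 3 and 1 with scaling by gene counts, and the ratio count was 3 without Bama cold replicate 3 and 2 when replicate 1 of Hezuo was left out at either temperature. The shares over all features under those settings are not given beside them. No host gene of a member was called for this difference with edgeR, where 0.00739% of genes were. The unadjusted p was below 0.05 for 32 of 385 hosts, or 8.31%, close to the 8.02% of all genes tested. DESeq2 called 4 hosts, a count given without its share over all genes.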

How the data were processed

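Total RNA of 12 pig livers was freed of ribosomal RNA, fragmented, and made into strand-marked libraries for Illumina sequencing, per the labels' protocols. Reads were trimmed with fastp, per the submitters' processing notes, which name no version. For the aligner, circRNA caller, annotation and genome build: not given in the sources used here. The deposited circRNA table gives whole-number counts of back-splice reads per circle and library, and an RPM value that the authors scaled to 1000000 back-splice reads per library (not used in tests). The deposited gene table gives estimated counts, of which 9.48% of nonzero values are fractional, and FPKM values by the authors, used only for levels per length. Estimated counts were rounded before testing. Whether gene counts hold reads from circles is not stated.

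The members and the gene lists were chosen with earlier results of these data known. Tests used edgeR 4.0.16 (with limma 3.58.1, R 4.3.3): a robust quasi-likelihood fit over all 12 libraries in 4 groups, with 8 residual degrees of freedom, TMM normalization and Benjamini-Hochberg adjustment over every feature tested, called at 0.05. Level was tested on 9032 circRNAs with at least 2 reads in at least 3 libraries and at least 10 in all. The ratio used the logarithm of the host count plus 0.5 as an offset, for 7802 exonic circles whose host averaged at least 50 counts. Host level was tested on 13532 genes. The pipeline was tested on simulated data first. Alternatives were DESeq2 1.42.0, no filter, other scalings, a replicate block, Y-linked RNA as a covariate, the 2 groups compared alone, 5 added to the host count, other read thresholds, and leaving out each library. Python 3.11.15 was used for summaries.

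Named circles were the 12 most abundant, up to 6 rises and falls per contrast and test among those called (or the 3 smallest p where none was), all members of the hosts with the most members, the 5 highest and lowest per length, the 3 on each side of the read threshold, and called members of the lists. Host names came from the files for 350 hosts, from an Ensembl table for 23 and a RefSeq table for 9, and 5 stayed unnamed. Circle reads carry no molecular identifiers, so intervals cover counting error only. Same-numbered pigs did not deviate together (correlations of -0.0268 to 0.0344 for circles and -0.198 to 0.148 for genes), so numbers do not pair the samples. Replicates of a group differed by more than counting error in both tables. Values of a few genes are not reported here.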

Additional observations from a re-analysis of the deposited data

Results flagged for a closer look

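The response to cold differed between the breeds, by the test of the difference itself, for 3 members in level and 1 in the ratio to the host. The response of NDFIP2 circle 3 was smaller in Hezuo than in Bama by a log2 difference of -2.301 ± 0.489 (adjusted p = 0.00697, edgeR), and that of NDFIP2 circle 1 by -1.546 ± 0.332 (adjusted p = 0.00697). The call of circle 3 was lost without Bama room temperature replicate 1 (adjusted p = 0.0867) or 3 (0.14), Bama cold replicate 3 (0.798) or Hezuo cold replicate 3 (0.202), and that of circle 1 without Bama room temperature replicate 1 (0.088) or 3 (0.0651), Bama cold replicate 3 (0.353) or Hezuo cold replicate 1 (0.063). Both NDFIP2 calls were also lost with scaling by gene counts and with Y-linked RNA as a covariate.

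CYP3A39 circle 4 gave a fitted difference of 9.993 in level and 10.1 in the ratio. These fitted values set groups of 1 and 2 reads in all against groups of 40 and 92, so they depend on the prior count and are no bound, and DESeq2 did not call the ratio. The part of reads shared among near-identical CYP3A copies was not tested.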

How the results depend on the processing

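No fitted log2 fold change of a named member changed sign under the alternatives run, but the split of calls did. Scaled by gene counts, averaged cold level calls went from 5 higher and 4 lower to 3 and 8. With both sides scaled within their own table, averaged ratio calls went from 1 higher and 4 lower to 4 and 2 for cold, and from 11 and 10 to 8 and 17 for breed. Contrasts are given in the order cold in Bama, cold in Hezuo, breed at room temperature, breed in the cold, difference of the cold responses, cold averaged, breed averaged. Members called for level numbered 9, 4, 9, 18, 3, 9 and 29, and ranged over the 12 fits that leave out 1 library from 4 to 11, 1 to 6, 3 to 9, 13 to 20, 1 to 3, 6 to 12 and 21 to 30. For the ratio (4, 1, 2, 18, 1, 5 and 21) the ranges were 1 to 4, 1 to 4, 0 to 5, 12 to 18, 1 to 3, 2 to 7 and 15 to 25, and for host genes (1, 1, 2, 10, 0, 12 and 43) 0 to 5, 0 to 2, 0 to 17, 1 to 12, 0 to 1, 2 to 18 and 16 to 52.

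With Y-linked RNA as a covariate, level calls were 1 for cold in Bama, 0 for breed at room temperature, 1 for the difference, 5 for cold averaged and 8 for breed averaged. The effect of that covariate was estimated within cold Bama only. Ratio calls were 0 for cold in Bama, breed at room temperature and cold averaged, and 4 for breed averaged, and host calls were 2 for breed in the cold and 0 in the other contrasts. DESeq2 called 2 members for level for cold in Hezuo and 4 for breed at room temperature. For the ratio it called 12 for cold in Bama, 0 for cold in Hezuo, 0 for the difference and 12 for cold averaged. For hosts it called 20, 28, 24, 37, 4, 42 and 65. The counts in this section stand without the share called over all features under the same setting. A change in a count between settings is therefore not a result about these circles or hosts. Without a filter, 4 were called for level and 1 host for breed at room temperature, and 2 for the ratio for cold in Bama. Fits on the 2 groups compared alone gave ratio calls of 2 for cold in Hezuo and 5 for breed at room temperature, and host calls of 0, 2, 1 and 5 in the first 4 contrasts. Scaling by gene counts left 1 level call for the difference. The cause of these shifts was not tested.

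With the replicate block, level calls were 9, 3, 8, 17, 3, 9 and 27, ratio calls 4, 1, 3, 17, 1, 5 and 20, and host calls 0, 0, 0, 7, 0, 9 and 37, though the numbers do not pair the samples. Circles near 120 reads average about 10 reads per library, which limits what could be called for them.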
